A study of Bos taurus with 22 samples.

Results

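Transcripts of collagens, basement membrane proteins and the enzymes that modify collagen were followed in subcutaneous fat of heifers across their first calving. Members were all probe sets whose single gene symbol in the array's annotation begins with COL, a number, A and a number, or with P4HA, PLOD, LAMA, LAMB, LAMC or NID, or is SERPINH1, HSPG2, LOXL2 or FN1. This rule found 73 of 24016 bovine probe sets on the array, which stand for 39 genes. It goes by symbol and not by measured values, but it was set with earlier results of these data known. No probe set carried the single symbol COL6A3 or LOXL2, nor COL4A2, COL5A1, LAMA2 or LAMA5, so these chains are missing from their groups. The members were divided by the known role of the protein into fibrillar collagens (22 probe sets), type VI collagen (5), basement membrane components (20), other collagens (15), modifying enzymes with the collagen chaperone (9) and fibronectin (2).

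Samples came from dorsal subcutaneous white fat near the ischium of 11 Holstein heifers, 24 to 28 months old and kept on 1 farm. Each was biopsied 30 days before calving (prepartum, 11 arrays) and 14 days after it (postpartum, 11 arrays), and each biopsy was hybridised to 1 Affymetrix bovine array. The labels describe the rations before and after calving separately, so ration and time cannot be told apart. The titles end in either of a pair of unexplained codes, called here array set 1, with both arrays of 5 cows, and array set 2, with both arrays of 6 cows. All 11 adipocyte markers with a probe set, among them ADIPOQ, LEP and FABP4, passed the filter described below.

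Collagens are triple helices of chains rich in glycine, proline and hydroxyproline. Types I, III and V form the banded fibrils of connective tissue, whereas type VI forms beaded filaments that surround fat cells. Every adipocyte is also wrapped in a basement membrane, a sheet of laminin trimers and a type IV collagen network joined by nidogens and the proteoglycan perlecan. In the endoplasmic reticulum, prolyl hydroxylases (P4HA) stabilise the helix, lysyl hydroxylases (PLOD) prepare it for cross-linking, and the chaperone HSP47, encoded by SERPINH1, binds the folded molecule.

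Levels are given as log2(signal + 7.78) of the deposited array signal, and changes are postpartum minus prepartum of these values, a scale that compresses differences at low signal. Probe sets whose mean reached at least the 40th percentile were tested, and a probe set was called when its adjusted p in limma's paired test over all 14410 tested probe sets was under 0.05. The filter kept 46 of the 73 members, for 30 of 39 genes. The 27 members below it had means of 3.37 to 5.03. They included all probe sets of COL4A3, COL4A4, COL9A1, COL10A1, COL11A2, COL13A1, COL17A1, COL26A1 and LAMB3. A signal from bulk tissue cannot tell fewer cells of a type from less RNA per cell.

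Several arrays stood apart. After subtraction of group means, the arrays of a cow correlated at 0.18 to 0.43 for 10 cows and at -0.09 for the pair labelled cow 387. For that pair the array of a different cow matched at 0.64, and the pairing is treated as in doubt. Its prepartum array also had high muscle markers (below), and the reason for the low correlation was not tested. Own arrays were the best match in 7 of 11 cows, and in cows 341 (0.31 against 0.23), 330 (0.24 against 0.18) and 384 (0.30 against 0.21) the array of a different cow matched better. Skeletal muscle markers (9 of 10 with a probe set passed the filter, TNNI2 did not) exceeded their usual level by a median of 8.09 log2 units for cow 384 postpartum, 7.58 for the pair labelled 387 prepartum, 4.53 for cow 386 postpartum and 3.22 for cow 384 prepartum. Before calving, 4 cows had a high signal of KRT10, an epidermal keratin (9.34 in cow 331, 12.55 in cow 341, 9.35 in cow 330 and 11.48 in cow 382), and no other array exceeded 7.11. Results were therefore also computed without cows 384 and 387 and without those 4 cows.

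The laminin chain LAMC1, fibronectin and a minor fibrillar collagen were lower after calving, as was the laminin chain LAMA4 on a dim probe set. The main fibrillar chains and type VI collagen were not called. Across the 11 cows, 4 of 46 member probe sets fell and 0 rose, beside 3.43% of all tested probe sets called, 1.98% lower and 1.44% higher. The probe sets that fell belonged to LAMC1, LAMA4, FN1 and COL27A1. At an unadjusted p under 0.05 in the same limma test, 19 members were lower and 3 higher, beside 10.2% and 9.64% of all tested probe sets. At an adjusted p under 0.10 the counts were 12 and 1, beside 4% and 3.27%. In all, 38 of 46 members had a change below 0, against 47.5% of all tested probe sets, and the members' median change was -0.30 against 0.01. All 13 genes with several tested probe sets had the same sign in each of them. Without pairing by cow, limma called 2 members, FN1 and LAMC1, beside 2.35% of all probe sets.

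**Figure D1:**
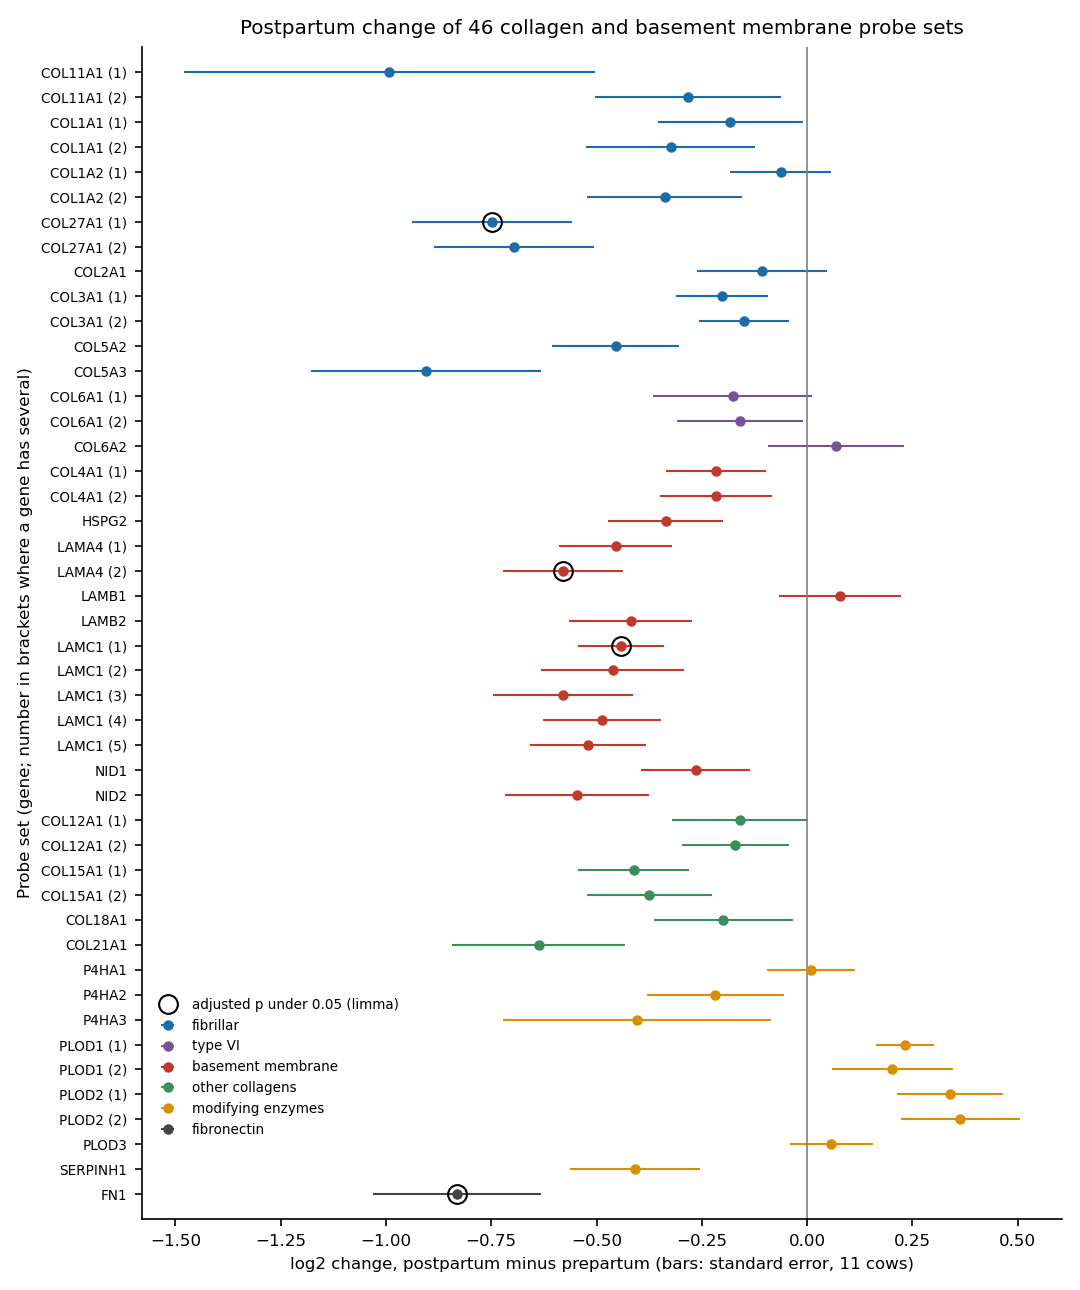
Log2 change from prepartum to postpartum (horizontal axis) of the 46 tested member probe sets, coloured by group, with bars for the standard error over 11 cows and rings around those with an adjusted p under 0.05. The 4 ringed points are COL27A1, LAMA4, LAMC1 and FN1, and the points to the right of 0 are those of the PLOD genes, LAMB1, COL6A2 and P4HA1.

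The calls were sensitive to the cows included. Without cows 384 and 387, 12 members fell and 2 rose, beside 3.8% and 3.62% of all tested probe sets (7.43% in all), and 3 of the 4 calls above were among them, all but that of the brighter COL27A1 probe set. Leaving out cow 384 alone gave 8 member calls beside 6.72% of all tested probe sets, and leaving out the pair labelled 387 gave 9 beside 4.31%. Removal of cow 341, 360, 330, 346 or 382 left 0 calls among the members in limma's test, beside 1.83%, 1.84%, 1.94%, 1.71% and 1.68% of all. Removal of cow 347 left 1 (beside 2.18%), that of cow 331 or 386 left 2 each (2.76% and 2.66%), and that of cow 338 left 4 (2.52%). The count over all probe sets thus also rose or fell with the cows included. Without the 4 cows with high KRT10, 0 of 46 members were called, beside 0.0416% of all, and 7 were lower and 0 higher at an unadjusted p under 0.05, beside 5.73% and 4.9% of all tested probe sets. In those 7 cows the mean change was -0.43 for LAMC1, -0.47 for LAMA4, -0.54 for COL27A1 and -0.60 for FN1.

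Among basement membrane components, LAMC1 encodes the gamma chain that most laminins share. On its brightest probe set, prepartum levels ran from 11.02 to 11.31 with a median of 11.24, and postpartum levels from 10.17 to 11.13 with a median of 10.84. The prepartum arrays were tightly grouped (SD 0.11, n = 11), and 9 of 11 postpartum arrays lay below all of them. LAMC1 fell 1.36-fold, by a log2 change of -0.44 (SE 0.10, adjusted p = 0.0294 in limma's test), in 11 of 11 cows. Its 4 other tested probe sets had changes of -0.46 to -0.58 without a call, with adjusted p of 0.0527 to 0.143. Adjusted p for the brightest probe set was 0.0185 to 0.0721 when single cows were left out, and 5 of these 11 fits ended the call (without 341, 360, 330, 346 or 382).

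LAMA4 encodes a laminin alpha chain of fat and vessel basement membranes. Its dimmer probe set had prepartum levels of 5.05 to 6.62 (median 5.66) and postpartum levels of 4.22 to 6.28 (median 5.21). The ranges overlapped, but each of the 11 cows was lower after calving. By this probe set LAMA4 fell 1.49-fold, a change of -0.58 (SE 0.14, adjusted p = 0.0393). Its mean of 5.58 lay near the filter, where the lowest mean kept was 5.05. LAMA4 was not among the calls with a 60th percentile filter or with no filter. Its brighter probe set went from a mean of 10.45 ± 0.29 to 9.99 ± 0.51 (SD, n = 11), a change of -0.46 that was not called (adjusted p = 0.0753, and 0.0414 without cows 384 and 387). The call on the dimmer probe set was lost without cow 331, 341, 347, 360, 330, 346 or 382 (adjusted p up to 0.0889) and without pairing by cow (adjusted p = 0.224).

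LAMB1 and LAMB2 encode the beta chains that join these alpha and gamma chains. LAMB2 had a change of -0.42 (SE 0.15, adjusted p = 0.128) and was lower in 9 of 11 cows. LAMB1 had prepartum levels of 9.30 to 10.40 (median 9.84) and postpartum levels of 8.66 to 10.30 (median 10.03). Its change was 0.08 (SE 0.14, adjusted p = 0.81), with a 95% interval from -0.23 to 0.39, and it was lower in 4 of 11 cows. The change of LAMC1 lay below that of LAMB1 in 10 of 11 cows, with a mean difference between the changes of -0.52 (SD 0.52, n = 11). No test is given, since this pair was picked after its values were seen.

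The remaining basement membrane genes were not called. NID2, a nidogen that links laminin to type IV collagen, had a change of -0.55 (SE 0.17, adjusted p = 0.093), was lower in 10 of 11 cows, and fell by 0.52 without cows 384 and 387 (adjusted p = 0.0099). Its paralog NID1 had a change of -0.26 (adjusted p = 0.273). HSPG2, which encodes perlecan, had a change of -0.34 (adjusted p = 0.186). COL4A1, the main chain of the type IV network, had a mean of 11.99 ± 0.17 before and 11.78 ± 0.29 after calving (SD, n = 11), a change of -0.22 on each of its 2 tested probe sets (95% interval for the brighter one -0.47 to 0.04). Its changes ran from -1.17 in cow 384 to 0.52 in the pair labelled 387.

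**Figure D2:**
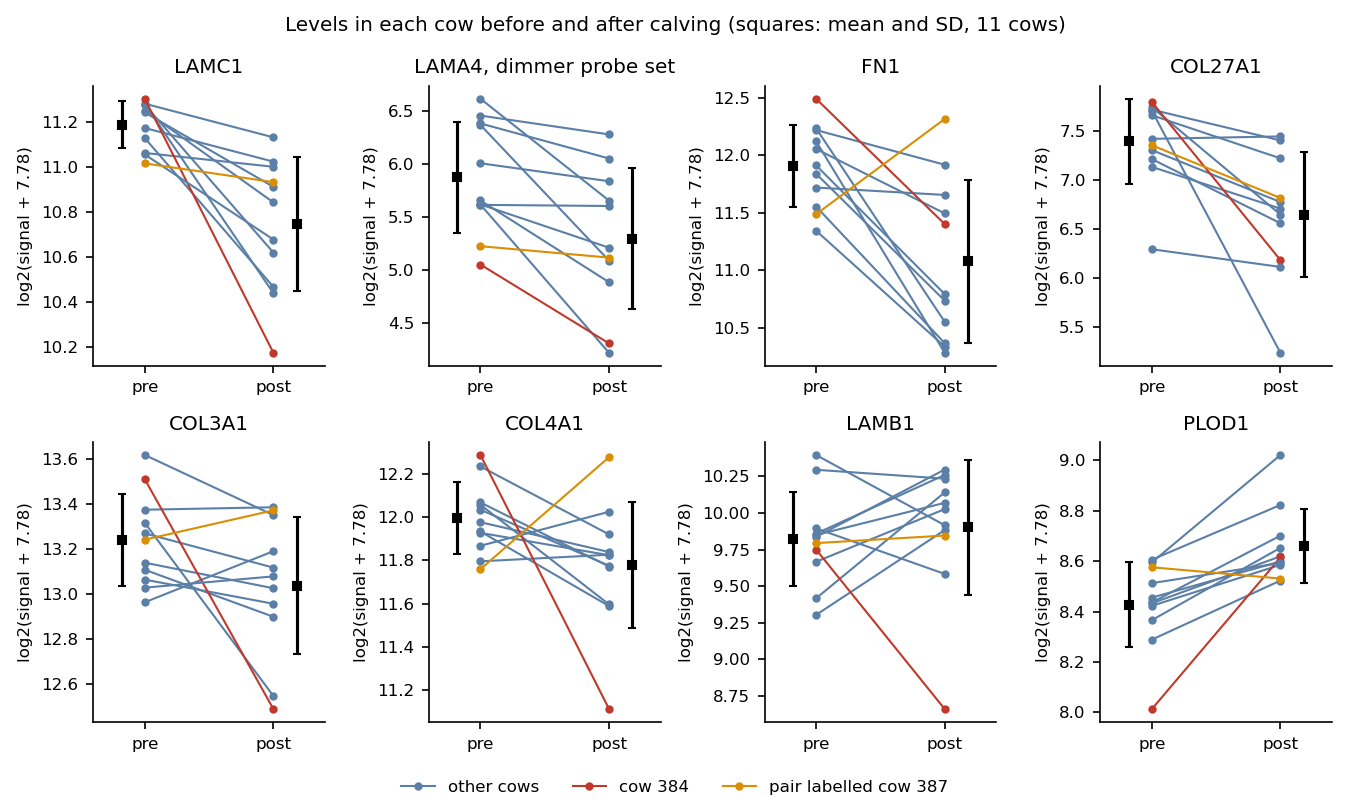
Levels of 8 members as log2(signal + 7.78) in each cow before and after calving, joined by lines, with cow 384 and the pair labelled cow 387 in colour and squares for the mean and SD of 11 arrays. LAMC1 (brightest probe set) and LAMA4 (dimmer probe set) slope down in 11 of 11 cows and FN1 in 10 of 11, while PLOD1 (brighter probe set) slopes up in 10 of 11.

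FN1 encodes fibronectin, the glycoprotein on which cells assemble collagen fibrils. Prepartum levels ran from 11.35 to 12.49 (median 11.91) and postpartum levels from 10.28 to 12.32 (median 10.79). Of the postpartum arrays, 6 of 11 lay below every prepartum array, and the highest was that labelled cow 387. The fall of FN1 was 1.78-fold, a change of -0.83 (SE 0.20, adjusted p = 0.0343), in 10 of 11 cows. The pair labelled 387 had a change of 0.83, opposite to the others, and without it the change was -0.997 (adjusted p = 0.00342). The call was lost without cow 341, 347, 360, 330, 346, 382 or 386 (adjusted p up to 0.0799). Without the 4 cows with high KRT10 the change was -0.60 (adjusted p = 0.414).

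All 13 tested probe sets of fibrillar collagens had a change below 0 (median -0.32), and 1 fell. COL27A1 encodes type XXVII collagen, a minor fibrillar chain best known from cartilage. Its brighter probe set had prepartum levels of 6.29 to 7.79 (median 7.42) and postpartum levels of 5.24 to 7.44 (median 6.70). Of 11 cows, 10 were lower, cow 330 by the most (-2.47). COL27A1 fell 1.68-fold, by a change of -0.75 (SE 0.19, adjusted p = 0.0451), and its other probe set had a change of -0.70 (adjusted p = 0.0589). The brighter probe set missed the threshold without pairing by cow (adjusted p = 0.0673), without cows 384 and 387 (0.0596), and without cow 331, 341, 347, 360, 330, 346, 382 or 386 (up to 0.0952).

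COL1A1 and COL1A2 encode the chains of type I collagen. COL1A1 went from 12.46 ± 0.30 to 12.28 ± 0.56 (SD, n = 11), a change of -0.18 (SE 0.17, adjusted p = 0.605, 95% interval -0.55 to 0.19). COL1A2 had a change of -0.06 (SE 0.12, adjusted p = 0.816), whose sign turned without cow 384 (0.02). Its other probe set went from 12.79 ± 0.27 to 12.45 ± 0.60 (SD, n = 11), a change of -0.34 (SE 0.18, adjusted p = 0.327) that was below 0 in 8 of 11 cows and stood at -0.22 without cows 384 and 387. COL3A1, the single chain of type III collagen, went from 13.24 ± 0.20 to 13.04 ± 0.30 (SD, n = 11), a change of -0.20 (SE 0.11, adjusted p = 0.327, 95% interval -0.44 to 0.03). The interval of COL1A1 reaches below the change of LAMC1 (-0.44), and that of COL3A1 ends just short of it.

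The type V chains start type I fibrils and limit their width. COL5A3 had prepartum levels of 8.01 to 9.38 (median 8.68) and postpartum levels of 5.91 to 9.09 (median 7.93). Its change was -0.90 (SE 0.27, adjusted p = 0.0836), lower in 10 of 11 cows, with 6 postpartum arrays below all prepartum ones. COL5A2 had a change of -0.45 (SE 0.15, adjusted p = 0.111), lower in 9 of 11 cows. Without cows 384 and 387 both fell, COL5A3 by 0.77 (adjusted p = 0.0365) and COL5A2 by 0.36 (adjusted p = 0.0231). In the RefSeq gene table COL5A2 is the protein-coding neighbour of COL3A1. COL11A1, the chain related to type V that is prominent in cartilage, had the widest spread, from -4.04 (cow 360) to 2.16 (cow 386) on a probe set with a mean change of -0.99 (SE 0.49, adjusted p = 0.278). COL2A1, the cartilage fibril chain, passed the filter on 1 of 4 probe sets, at means of 5.19 and 5.09.

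Type VI collagen showed no call. COL6A1, an obligatory chain of the beaded filament, went from 11.70 ± 0.23 to 11.52 ± 0.55 (SD, n = 11) on its brighter probe set, a change of -0.18 (SE 0.19, adjusted p = 0.649, 95% interval -0.58 to 0.23). Cow 384 had a change of -2.05, and without it the mean change was 0.01. COL6A2, its partner and its neighbour in the RefSeq gene table, had a change of 0.07 (SE 0.16, adjusted p = 0.857) and was lower in 4 of 11 cows. The median over the 3 tested type VI probe sets was -0.16, and its sign depended on the cows. It was 0.01 without cows 384 and 387 and 0.11 in array set 1 alone, but -0.33 in array set 2 alone and -0.21 without the 4 cows with high KRT10.

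Other collagens were lower in their means but not called over 11 cows (6 of 6 tested probe sets below 0, median -0.29). COL15A1, which lies at the outer face of basement membranes, went from 10.91 ± 0.27 to 10.50 ± 0.32 (SD, n = 11), a change of -0.41 (SE 0.13, adjusted p = 0.0996). It was lower in 9 of 11 cows and fell by 0.40 without cows 384 and 387 (adjusted p = 0.0421). COL21A1, a collagen that associates with fibril surfaces, had a change of -0.64 (SE 0.21, adjusted p = 0.101). COL18A1, the precursor of endostatin, had a change of -0.20 (adjusted p = 0.548). COL12A1, another fibril-associated collagen, had one of -0.16 (adjusted p = 0.629) on its brighter probe set.

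The modifying enzymes had changes of both signs. Their 9 tested probe sets had a median change of 0.06, with 3 below 0. PLOD1, a lysyl hydroxylase, had on its brighter probe set prepartum levels of 8.01 to 8.61 (median 8.44) and postpartum levels of 8.52 to 9.02 (median 8.62). Its change there was 0.23 (SE 0.07, adjusted p = 0.0791), higher in 10 of 11 cows, and 6 postpartum arrays lay above every prepartum array. The dimmer PLOD1 probe set had a change of 0.20 (SE 0.14, adjusted p = 0.472), higher in 8 of 11 cows. PLOD2, which hydroxylates lysines of the collagen telopeptides, had changes of 0.34 and 0.36 on its 2 probe sets (adjusted p = 0.149 and 0.170). Without cows 384 and 387 the brighter PLOD1 probe set rose by 0.22 (adjusted p = 0.0369), and the dimmer PLOD2 probe set rose by 0.46 (adjusted p = 0.0444), as the 2 higher calls among the members. The other probe set of each gene was not called in those cows (PLOD1 0.25, adjusted p = 0.348, PLOD2 0.39, adjusted p = 0.0918). PLOD3 had a change of 0.06 (adjusted p = 0.794).

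Among prolyl hydroxylase subunits, P4HA1 had a change of 0.01 (adjusted p = 0.975), P4HA2 of -0.22 (adjusted p = 0.501) and P4HA3 of -0.40 (adjusted p = 0.523). SERPINH1 had prepartum levels of 9.06 to 10.39 (median 9.97) and postpartum levels of 8.45 to 10.24 (median 9.47). Its change was -0.41 (SE 0.15, adjusted p = 0.158), lower in 9 of 11 cows.

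Set side by side, the median change was -0.45 for basement membrane, -0.32 for fibrillar, -0.29 for other and -0.16 for type VI collagens and 0.06 for modifying enzymes, with fibronectin, a single probe set, at -0.83. With 1 probe set a gene, basement membrane was at -0.38, fibrillar at -0.33, type VI at -0.05 and modifying enzymes at 0.01, and the fibrillar median was then below 0 in 10 of 11 cows. Counted that way without the 4 cows with high KRT10, the order of the first pair turned, with fibrillar at -0.35 and basement membrane at -0.32. Within cows, the basement membrane median was below 0 in 10 of 11 cows, the fibrillar median in 7, the type VI median in 5 and the modifying enzyme median in 3. Basement membrane lay below type VI in 9 of 11 cows (mean difference -0.34, SD 0.41, n = 11) and below fibrillar in 7 (mean difference -0.14, SD 0.42, n = 11). Both mean differences were smaller than the SD over single cows, which does not measure the precision of a mean. Modifying enzymes lay above basement membrane in 10 of 11 cows (mean difference 0.49, SD 0.35, n = 11). No test is given for these medians, since the groups were set with earlier results of these data known.

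**Figure D3:**
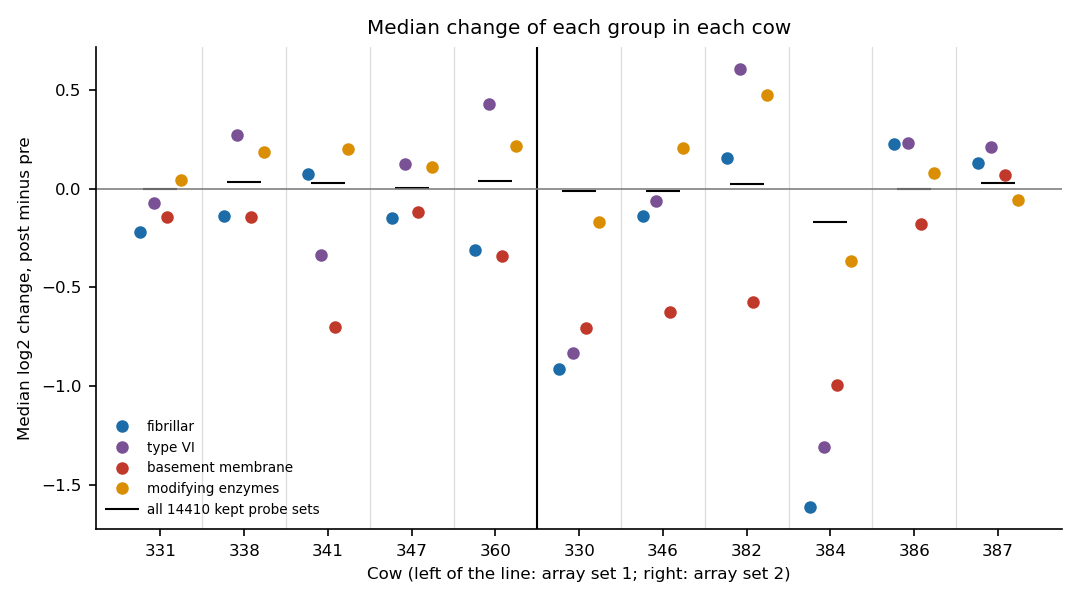
Median log2 change (vertical axis) of fibrillar, type VI, basement membrane and modifying enzyme probe sets in each cow, with a dash for the median of all 14410 tested probe sets. The basement membrane point lies below 0 in every cow but 387, and cow 384 has the lowest point of each group.

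Cows differed widely. The members' median change ran from -1.09 (cow 384) through -0.82 (cow 330) and -0.44 (cow 346) to 0.11 (the pair labelled 387). In cow 384, 41 of 46 members were lower, as they were in cow 330, while cow 382 had 21 and the pair labelled 387 had 20. The postpartum array of cow 384 held the lowest of all 22 levels for 22 of the 46 members. That array also had the highest muscle markers (above), the lowest adipocyte markers (a median deviation of -1.76) with fibroblast markers at -0.49 and endothelial markers at -0.88. Cow 330 had no such rise of muscle markers (-0.41), and its fibroblast markers had a median change of -0.23. Its smooth muscle and pericyte markers had a median change of -1.22, the lowest of the 11 cows, and its epidermis markers one of -1.71. Without cows 384 and 387 the basement membrane median was -0.42 and the fibrillar median -0.22, in a set of cows that still held cow 386, whose muscle markers had a median change of 4.16. The part of RNA from these other cells in the member changes was not tested.

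**Figure D4:**
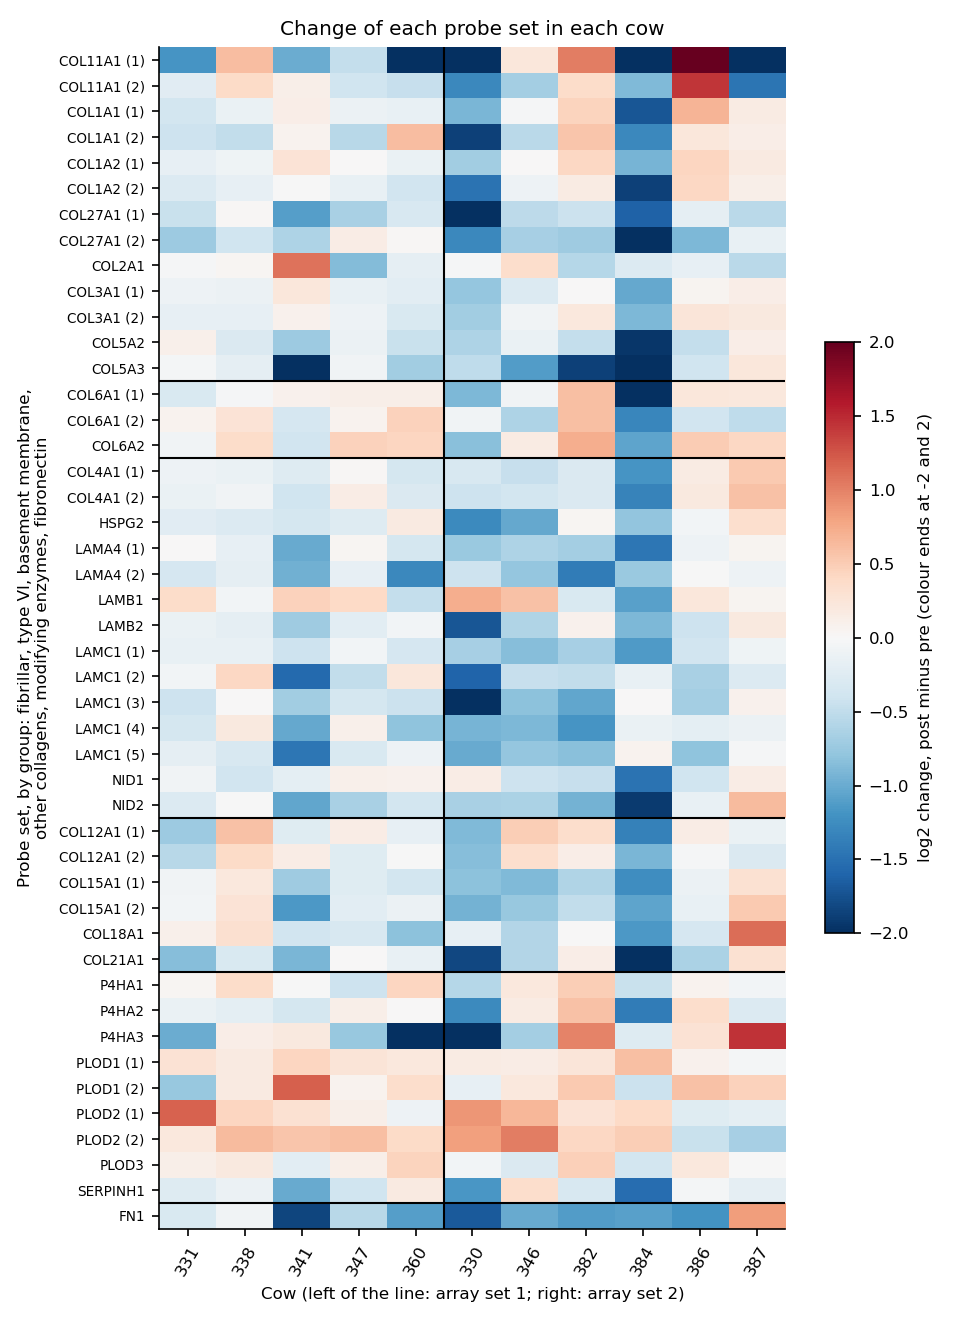
Log2 change of each of the 46 tested probe sets (vertical, by group) in each cow (horizontal), with blue for lower and red for higher postpartum and the colour scale ending at -2 and 2. The column of cow 384 is blue in 41 of 46 probe sets, and the PLOD probe sets form the red band near the bottom.

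The cell type markers were also read as lists, beside 1.98% of all tested probe sets called lower and 1.44% called higher. All 9 fibroblast markers passed the filter, with 4 below 0, a median change of 0.09, 1 called lower and 1 higher. Their summed signal ran from 13208 to 17376 prepartum and from 10784 to 20682 postpartum. Of 7 tested endothelial markers (KDR lay below the filter), 3 had a change below 0 and 2 were called higher. Their median change was 0.18, with sums of 2801 to 4081 and 1730 to 4658. Of 11 adipocyte markers 7 were below 0 and 3 fell, with a median change of -0.21 and sums of 24064 to 36717 and 16542 to 33814. The 7 smooth muscle and pericyte markers, 5 of them below 0, had a median change of -0.15 and no call (sums of 4764 to 9630 and 3880 to 12304), and the 6 macrophage markers had a median of 0.33 and no call (sums of 1731 to 4336 and 1710 to 9267). Which of these cells supplied the member transcripts was not tested.

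Basement membrane levels were also read in each array, as a median above the probe sets' own medians. In the 4 prepartum arrays with high KRT10 they stood at 0.32 (cow 331), 0.20 (cow 341), 0.35 (cow 330) and 0.23 (cow 382). The prepartum array of cow 384 stood at 0.27, with KRT10 at 6.32 and muscle markers at 3.22. The postpartum array of cow 331 stood at 0.23, with KRT10 at 6.64. Of 6 epidermis markers with a probe set, KRT10 and KRT5 passed the filter and KRT14, KRT15, DSG1 and PKP1 did not. Both that passed had a change below 0, neither was called, and their summed signal ran from 173 to 6188 prepartum and from 194 to 288 postpartum. COL17A1, the hemidesmosome collagen of basal keratinocytes, lay below the filter on both probe sets. On one it stood at 6.14 before calving in cow 341 and at 5.98 in cow 382, against at most 4.27 in the other arrays, and on the other it did not stand out there (3.98 and 4.94). LAMB3, a chain of the epidermal laminin, was at 5.21 and 5.04 in those arrays, against up to 5.11 elsewhere. Without the 4 cows the basement membrane median was -0.31 and the fibrillar median -0.30. The part of skin RNA in the calls was not tested.

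Between array sets, basement membrane changes had a median of -0.27 in set 1 and -0.57 in set 2, and fibrillar changes -0.15 and -0.46. Limma's interaction test called 0 of 46 members and 0 of all tested probe sets. At an unadjusted p under 0.05, 1 member was found (LAMC1, mean change -0.22 in set 1 and -0.63 in set 2), beside 3.58% of all tested probe sets. Within set 1 alone limma called 0 members (beside 0.479% of all), with 12 lower and 3 higher at an unadjusted p under 0.05 (beside 7.18% and 8.99% of all). Within set 2 alone it called 0 members and 0 of all probe sets, with 16 lower and 0 higher at that level (beside 6.15% and 4.44%). FN1 averaged -0.78 in set 1 and -0.88 in set 2, and LAMA4 -0.59 and -0.57 on the called probe set.

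Changes of the type I chain COL1A1 were compared over cows with those of 1 gene from each of the main groups, using 3 pairs of brightest probe sets. COL1A1 and COL3A1 moved together (Pearson r = 0.91, permutation p = 0.00062, adjusted 0.00093; Spearman rho = 0.76, permutation p = 0.00896, adjusted 0.0134, n = 11), with r = 0.85 after cows 384 and 386 were left out as the 2 farthest on COL1A1. COL1A1 and COL6A1 did so too (r = 0.95, permutation p = 7e-05, adjusted 0.00021; rho = 0.87, permutation p = 0.00079, adjusted 0.00237), with r = 0.96 without the 2 farthest cows. For COL4A1 the relation (r = 0.72, permutation p = 0.0201, adjusted 0.0201; rho = 0.54, permutation p = 0.0938, adjusted 0.0938) dropped to r = 0.19 without those cows, so that it rests on them. Without cows 384 and 387, r was 0.80 for COL3A1, 0.89 for COL6A1 and 0.35 for COL4A1 (exact permutation, adjusted p = 0.0225, 0.0108 and 0.356). For COL3A1 rho was then 0.67 (exact permutation p = 0.0589, adjusted 0.0883). Its r was 0.50 once cows 330 and 386 were also left out, against 0.89 for COL6A1. Within array set 2 (6 cows) r was 0.96, 0.97 and 0.77 for COL3A1, COL6A1 and COL4A1 by exact permutation tests (p = 0.00833, 0.00694 and 0.075). There it fell to 0.56, 0.59 and 0.23 when the 2 farthest cows, 330 and 384, were left out. No value is given for array set 1, which holds 5 cows. Whether r differed between the pairs was not tested.

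**Figure D5:**
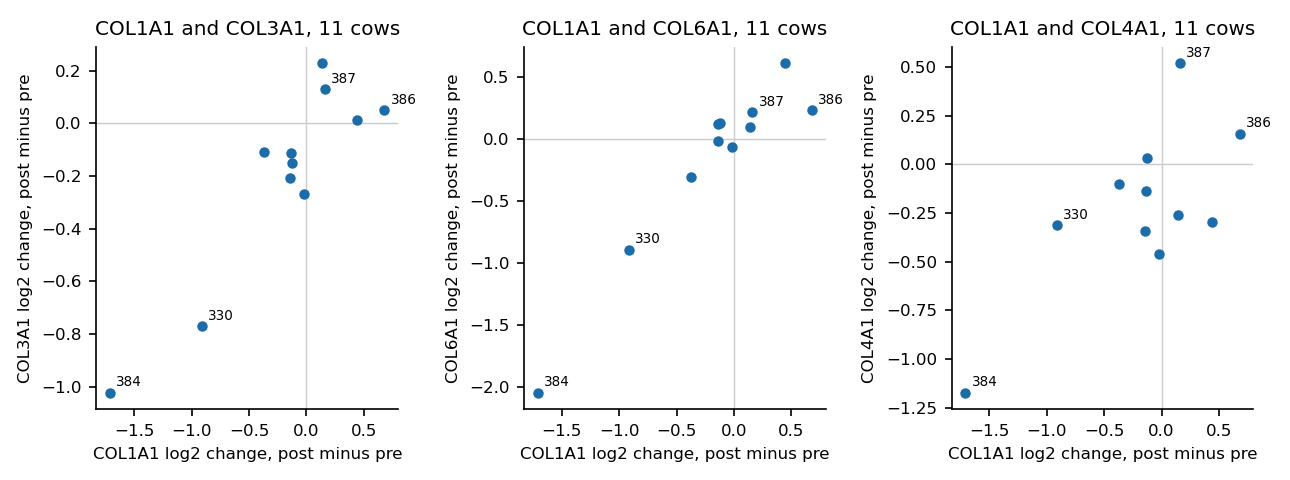
Log2 change of COL1A1 (horizontal) against that of COL3A1, COL6A1 and COL4A1 (vertical), 1 point a cow. The points follow a rising line for COL3A1 (r = 0.91) and COL6A1 (r = 0.95), and for COL4A1 (r = 0.72) the line depends on cows 384 and 386.

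Genes that act with the members were taken from lists set by function. Of 18 tested genes of collagen assembly, 3 fell and 0 rose by limma's test, beside 1.98% and 1.44% of all tested probe sets. At an unadjusted p under 0.05 in that test 8 genes were found, 7 of them lower. Of all tested probe sets, 10.2% were lower and 9.64% higher at that level. LOXL4, a lysyl oxidase that cross-links collagen, fell by 0.88 (SE 0.13, adjusted p = 0.00273, 10 of 11 cows). PCOLCE and PCOLCE2, which speed removal of the carboxyl propeptide from fibrillar procollagens, fell by 0.54 (SE 0.12, adjusted p = 0.0199, 10 of 11 cows) and by 0.41 (SE 0.09, adjusted p = 0.0294, 11 of 11 cows). PCOLCE lost the call without pairing by cow (adjusted p = 0.0818) and, narrowly, without cow 330, and PCOLCE2 without cow 331, 338, 341, 346 or 386 (adjusted p up to 0.0639). LOX had a change of -0.37 (adjusted p = 0.262), SPARC, a collagen-binding glycoprotein, -0.36 (adjusted p = 0.0998) and P4HB, the common partner of the P4HA subunits, -0.31 (adjusted p = 0.0997). CTSK, a collagen-degrading cathepsin, had 0.41 (adjusted p = 0.175) and rose by 0.58 without cows 384 and 387 (adjusted p = 0.00946).

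Of 6 tested receptors of collagen and laminin, 1 fell, beside 1.98% of all tested probe sets. DAG1, which encodes dystroglycan, a receptor for laminin alpha chains, fell by 0.36 (SE 0.07, adjusted p = 0.0169, 11 of 11 cows), and it was called without each single cow in turn (adjusted p up to 0.0472). ITGA7, a laminin-binding integrin, had -0.56 (adjusted p = 0.105), and ITGB1, the beta chain shared by these integrins, had -0.03 (adjusted p = 0.825). None of 8 tested genes of transforming growth factor beta signalling was called by limma's test, beside 3.43% of all tested probe sets. Of the 8 genes, 1 had an unadjusted p under 0.05 (SMAD4, change 0.24), beside 9.64% of all tested probe sets higher at that level. CCN2, a matrix target of this pathway, had -0.27 (adjusted p = 0.382).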

How the data were processed

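Total RNA of 22 biopsies was hybridised to Affymetrix bovine arrays. Per the submitters' processing notes, the authors used MAS5 to make the deposited signal intensities, which are linear. Not given in the sources used here are its version, its settings and the build. The mean after trimming 2% of values at each end was 125 on every array, a sign of scaling by the authors. Precision is limited by the number of arrays. Of 24128 probe sets, 112 array controls were left out. Of the rest, 13292 had 1 annotated symbol, 86 several and 10638 none. Symbols were updated by Entrez identifier from RefSeq (ARS-UCD2.0), which changed no member symbol.

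The added constant 7.78 is the 20th percentile of signal (median over arrays), and a mean at or above the 40th percentile kept 14410 probe sets. Changes were tested with limma 3.58.1 in R 4.3.3 (two-sided, intensity trend, cow as fixed block, Benjamini-Hochberg adjustment over these probe sets), which gave every adjusted p unless another test is named; it was tried on simulated data. Titles carry the cow number and the series describes paired sampling. Partner and marker genes are represented by the kept probe set of highest mean. Permutation tests were two-sided with 100000 resamples, or exact under 10 cows. Named members were called probe sets, the 4 genes of highest mean and the largest rise and fall in each group, and called partners. LAMB2, NID2, HSPG2, COL5A3, COL2A1, COL17A1, LAMB3, P4HA3, PLOD3 and uncalled partners were added after their values were seen. Members and lists were chosen with earlier results of these data known. The alternatives tried changed the pairing, scaling, added constant, filter, variance trend, weights, array set, threshold or cows. Python 3.11.15 with matplotlib 3.10.9 drew the figures.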

Additional observations from a re-analysis of the deposited data

How the results depend on the processing

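Against 4 member calls there were 2 with no replicate block, 10 with the replicate block as a random effect, 1 with no filter, 9 with array weights, 14 without cows 384 and 387, 0 without cows 330, 331, 341 and 382, 0 in each array set alone, 13 at an adjusted p under 0.10 and 22 at an unadjusted p under 0.05, and 0 to 9 without single cows. Over all probe sets, against 494, there were 1076, 1070, 6, 69 and 0 with array weights, without cows 384 and 387, without cows 330, 331, 341 and 382, and in array sets 1 and 2 alone, and 242 to 969 without single cows. There were 338 with no replicate block, 708 with the replicate block as a random effect and 379 with no filter. Quantile normalization, pseudocounts of 1 and 32, the 60th percentile filter, no intensity trend and 1 probe set a gene left the member count between 3 and 5. Group medians moved by less than the spread between cows in every alternative run, but that spread was wide. Its SD was 0.33 for basement membrane, 0.54 for fibrillar and 0.57 for type VI probe sets. The fibrillar median, for example, was -0.15 in array set 1 alone against -0.32 over 11 cows. The correlation of COL1A1 with COL4A1 was 0.35 without cows 384 and 387 (exact permutation, adjusted p = 0.356) and 0.77 in array set 2 alone (exact permutation, adjusted p = 0.075). Signs turned for medians near 0 and for uncalled members. The type VI median was 0.03 with no filter, 0.01 without cow 384, 0.01 without cows 384 and 387 and 0.11 in array set 1 alone, and that of modifying enzymes was -0.01 in array set 2 alone. COL1A2 was at 0.012 with array weights, 0.0058 without cows 384 and 387, and from -0.11 to 0.024 when 1 cow was left out. COL6A1 was at 0.0012 in array set 1 alone and -0.26 to 0.0098 without single cows, COL6A2 at -0.012 in array set 2 alone, LAMB1 at -0.054 without cows 330, 331, 341 and 382, and P4HA1 at -0.052 in array set 2 alone and -0.039 to 0.067 without single cows. The cause was not tested. The COL6A1 pair, the correlations in array set 2 and the unadjusted threshold were chosen after the data were seen. No COL6A3 probe set was found for the planned pair.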
